A study of Mus musculus with 6 samples.

Results

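Cells copy and rewrite the methyl marks on their cytosines with a small set of enzymes, and the genes of these enzymes were measured in cultured mouse spermatogonial stem cells given captopril or water. The set comprised 8 genes, namely Dnmt1, Dnmt3a, Dnmt3b, Dnmt3l, Tet1, Tet2, Tet3 and Uhrf1. Array probes were assigned to them through the RefSeq transcript accession printed for each probe. This gave 13 probes for 7 of the 8 genes, out of 55681 probes and 20280 named genes on the array. No probe accession matched Tet1 in the RefSeq table used. The array also carries accessions that this table does not list, so further probes of these genes, Tet1 included, may be among the probes left without a name, and Tet1 was not analysed here.

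DNA methylation in mammals sits mostly on cytosines that precede a guanine (CG sites). Dnmt1 copies the mark onto the new strand after DNA replication, and Uhrf1 brings it there by binding half-methylated DNA. Dnmt3a and Dnmt3b place new marks, Dnmt3l is their partner without catalytic activity, and the Tet dioxygenases oxidise the mark on the way to its removal. In the male germ line, Dnmt3l and the de novo enzymes set up methylation in fetal prospermatogonia, and spermatogonia then have to copy it at every division.

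Spermatogonial stem cells maintain sperm production in the testis, and those cultured here came from dissociated mouse testis. Per the labels' protocols, the floating cells were carried forward over several passages and then transferred to mouse embryonic fibroblast feeders. Captopril, an inhibitor of angiotensin-converting enzyme, was labelled as 0.01 M and was given for 24 h. Controls received sterile water, which the labels also write with 0.01 M. Each group had 3 arrays, numbered replicates 2, 3 and 4, and the labels' protocols call the cell samples independent. Strain, age and number of animals, and whether RNA came with or without the feeder cells, are not given in the sources used here. In such bulk RNA, fewer cells of a type and less RNA per cell cannot be told apart.

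Water replicate 3 stood apart from the other 5 arrays. Over 32426 probes its correlation with them was 0.878 to 0.893, against 0.970 to 0.991 among those 5. Genes had a median log2 SD of 0.45 in water, of 0.20 with captopril and of 0.11 between water replicates 2 and 4. All 15 undifferentiated germ cell markers entered the test, and 14 of them were well above background on all 6 arrays. Their summed level, in units of each array's 75th percentile signal, was 88.9 to 133.6 in water and 94.9 to 116.2 with captopril. All 15 fibroblast markers were well above background on all 6 arrays, with a summed level of 192.5 to 362.4 in water and 186.0 to 223.1 with captopril. The highest value of both lists in water was that of replicate 3. Of 11 Sertoli markers 6 entered the test, 5 of them well above background on all 6 arrays, with a summed level of 2.40 to 4.77 in water and 2.61 to 3.43 with captopril, while Amh, Gata4, Cldn11, Gata1 and Fshr did not. Of 7 Leydig markers 2 entered, both well above background on all 6 arrays, with a summed level of 0.191 to 0.207 in water and 0.198 to 0.237 with captopril, while Cyp11a1, Cyp17a1, Hsd3b1, Insl3 and Lhcgr did not. Of 9 leukocyte markers 7 entered, with a summed level of 6.39 to 8.73 in water and 5.66 to 8.54 with captopril. The Sertoli markers tested had a median log2 fold change of 0.10, with 4 of 6 above 0, and of 0.40 with 5 of 6 above 0 without water replicate 3. The part of these cell types in the enzymes' values was not tested.

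None of the 7 measured genes passed the test for a difference between captopril and water. This was also so of the array as a whole: with 6 arrays and a threshold of 0.05 on the adjusted p, the number of genes limma called was 0 of 14873 (0.0%), and 1222 (8.22%) had an unadjusted p under 0.05. Leaving out water replicate 3 gave 91 called genes (0.612%), 29 lower (0.195%) and 62 higher (0.417%) with captopril, and none of the called genes was an enzyme of this set. These calls depended on the scaling and filter: without the same array limma called 0 genes after quantile normalization (2979 with an unadjusted p under 0.05), 0 without the filter on dim probes (2843) and 39 with median scaling. The groups did not overlap in 2 of the 7 members, against 21.5% of all genes, or 42.9% without water replicate 3. Over 6 arrays the log2 fold change (captopril minus water) was below 0 in 6 of the 7 genes, with a median of −0.33, against 7920 of 14873 genes (53.3%) and a median of −0.03 over all genes tested. Scaling by each array's median put the median of all genes at −0.33 and all 7 members below 0. Leaving out water replicate 3 gave the members a median of −0.045, and 6 of 7 were still below 0, against 6167 of 14873 genes (41.5%) and a median of 0.07 over all genes. Between 24.7% and 64.3% of all genes tested had a larger change in size over 6 arrays than these members had.

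**Figure D1:**
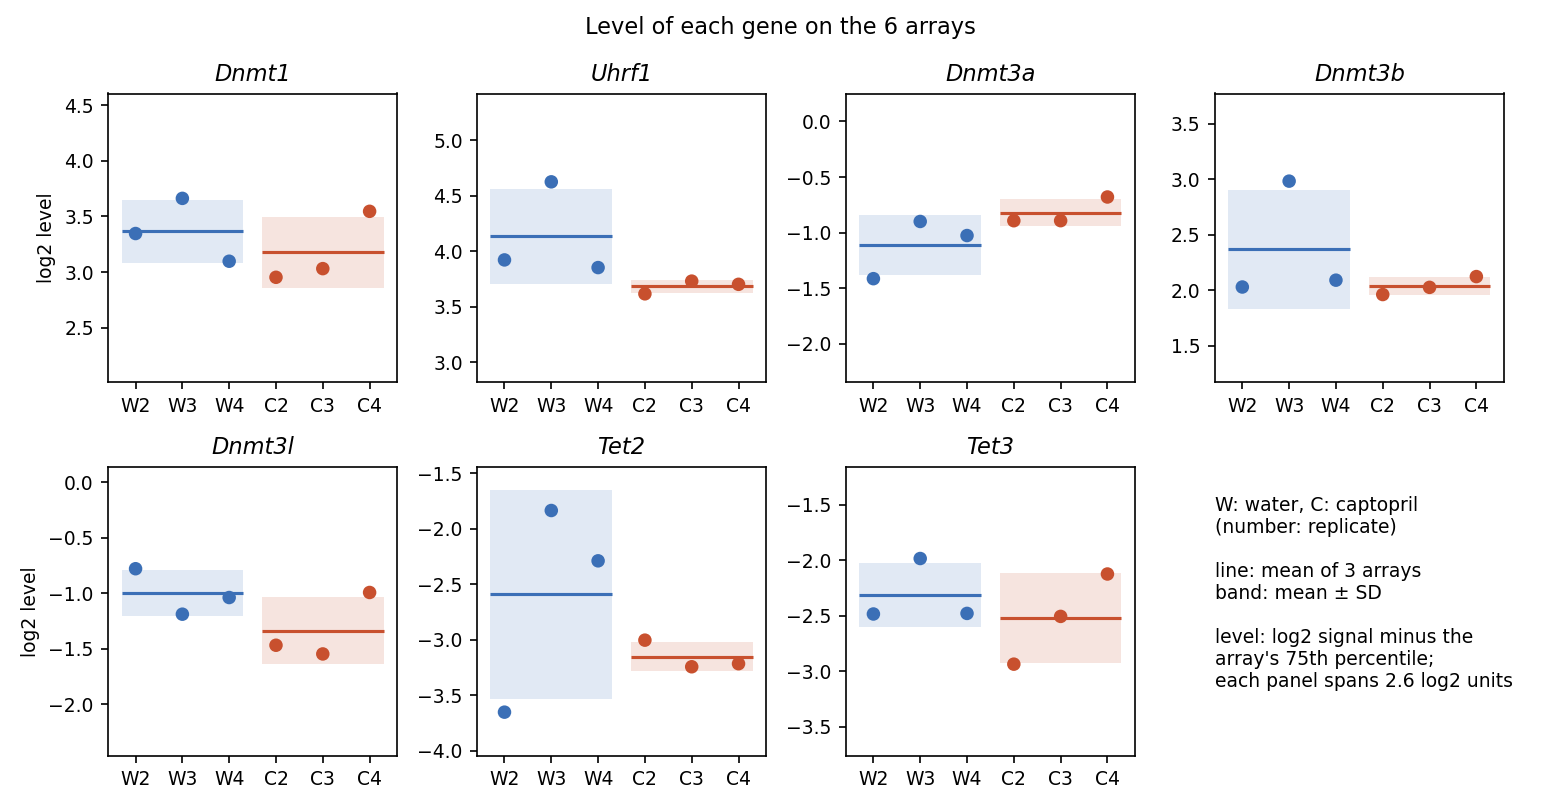
The level of each of the 7 measured genes on its representing probe is plotted for the 6 arrays (W water, C captopril, number the replicate). The vertical axis is the log2 signal minus the array's 75th percentile, lines are group means and bands the mean ± SD. Uhrf1 and Dnmt3a are the panels in which the 2 groups do not overlap.

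The maintenance pair, Dnmt1 and Uhrf1, had bright probes. The Dnmt1 probe (A_51_P195573, NM_010066) gave a processed signal of 22023 to 29297, and the main Uhrf1 probe (A_55_P2035286, NM_010931) gave 24500 to 49411. No member probe was saturated on any array. Levels are given as log2 of the signal minus the 75th percentile of the array, so that a level of 0 marks that percentile.

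Dnmt1, which copies methylation after replication, stood at 3.35, 3.66 and 3.10 on water replicates 2, 3 and 4. With captopril it stood at 2.95, 3.03 and 3.55 on replicates 2, 3 and 4. The groups overlapped, since captopril replicate 4 lay above water replicates 2 and 4. The means were 3.37 ± 0.28 (SD, n = 3) and 3.18 ± 0.32 (n = 3), a log2 fold change of −0.19 (SE 0.27, 95% interval −0.83 to 0.44, limma adjusted p = 0.814). As a fold this is 0.875, with an interval of 0.563 to 1.36. When water replicate 3 was left out the log2 fold change was −0.045 (95% interval −0.56 to 0.47, adjusted p = 0.923), and other arrays left out in turn gave values down to −0.38 (without captopril replicate 4). The direction turned, to 0.079, within slide row 2, which holds water replicate 4 and all captopril arrays. The slide row as a block gave the same value, since the other row holds only water arrays and adds nothing to the contrast.

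Uhrf1, the reader of half-methylated DNA that recruits Dnmt1, stood at 3.92, 4.62 and 3.85 on water replicates 2, 3 and 4. With captopril it stood at 3.61, 3.73 and 3.70. The captopril arrays lay close together, at 3.68 ± 0.06 (SD, n = 3), and all lay below all water arrays, at 4.13 ± 0.43 (n = 3). Such a separation downward was found in 11.4% of all genes tested and in 1 of these 7. The nearest arrays of the groups, captopril replicate 3 and water replicate 4, were 3.73 and 3.85. The log2 fold change was −0.45 (SE 0.27, 95% interval −1.09 to 0.19, limma adjusted p = 0.639; two-sided exact permutation p = 0.1, which no split of 3 and 3 arrays can go below). At the scaling used, water replicate 3 set much of this value. Without it the log2 fold change was −0.20 (SE 0.14, 95% interval −0.54 to 0.13, adjusted p = 0.448), with the groups still apart, as in 15.7% of all genes in that direction. How much that array set depended on the scaling. Quantile normalization gave −0.42 with all arrays and −0.33 without water replicate 3 (SE 0.12, limma adjusted p = 0.221). Median scaling gave −0.75 with all arrays and −0.34 without it (SE 0.13, limma adjusted p = 0.221).

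A second Uhrf1 probe (A_66_P120074, NM_001111079, another transcript variant) was dim. It stood at −2.77, −6.32 and −1.39 on water replicates 2, 3 and 4, and at −1.88, −2.73 and −1.89 with captopril. On water replicate 3, where the main probe was at its highest, this probe was not well above background. Its log2 fold change was 1.32 over 6 arrays (SE 1.18, adjusted p = 0.639 over 32426 probes) and −0.089 without water replicate 3 (SE 0.44, adjusted p = 0.922). The 6-array value rests on that background-level spot, and the mean of both probes, which includes it, gave 0.44 (SE 0.51, adjusted p = 0.733).

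Windows at transcription starts of Dnmt1 and Uhrf1 are shown because both genes are known to be transcribed with S phase genes, which are described further on. RefSeq (GRCm38.p6) gave windows from 250 bases before to 50 bases after a transcription start, 3 for Dnmt1 and 2 for Uhrf1. The window with the most CG sites of each gene is printed 5′ to 3′ with CG in capitals.
Dnmt1 (GRCm38.p6 chr9:20952574-20952873, minus strand): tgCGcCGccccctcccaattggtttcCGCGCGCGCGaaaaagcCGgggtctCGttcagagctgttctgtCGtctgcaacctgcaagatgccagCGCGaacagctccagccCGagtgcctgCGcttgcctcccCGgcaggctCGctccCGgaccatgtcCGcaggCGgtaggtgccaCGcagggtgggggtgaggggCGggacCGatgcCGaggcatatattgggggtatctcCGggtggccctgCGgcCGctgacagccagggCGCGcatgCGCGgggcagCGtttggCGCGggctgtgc
Uhrf1 (GRCm38.p6 chr17:56304063-56304362, plus strand): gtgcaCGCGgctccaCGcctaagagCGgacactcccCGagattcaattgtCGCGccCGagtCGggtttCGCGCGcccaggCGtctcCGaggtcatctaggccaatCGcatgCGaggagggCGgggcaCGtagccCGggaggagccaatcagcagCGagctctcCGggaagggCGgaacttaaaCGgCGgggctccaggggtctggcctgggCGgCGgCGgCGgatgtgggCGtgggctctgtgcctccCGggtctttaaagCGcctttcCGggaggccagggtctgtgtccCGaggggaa
Each of the windows holds 33 CG sites, more than 91.4% of the 32851 windows of the table, whose median is 7. Both hold a match to 1 of 4 spellings of the E2F site, TTTCCCGC, TTTGGCGC, TTTCGCGC and TTTGCCGC, searched on both strands. In Dnmt1 these are TTTGGCGC with its leftmost base 33 bases after the start and TTTCGCGC, on the opposite strand, with its leftmost base 219 bases before it. In Uhrf1 TTTCGCGC begins 185 bases before the start. These distances refer to the start of the printed window, which is not the first listed start of either gene. The other windows lie upstream of the printed one on the same strand. They hold 12 and 2 CG sites in Dnmt1 and 12 in Uhrf1, and no match to the 4 spellings. The printed matches thus lie downstream of other listed starts. Which start these cells use was not tested. Any of the 4 spellings occurs in 2.26% of all windows, and in 2 of the 15 windows of the 8 genes. All 4 spellings contain CG, and the rate among windows as rich in CG sites was not computed. A match describes the letters and was not tested as a binding site.

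None of the de novo enzymes or their partner passed the test. Dnmt3a, which places new methylation, was the member with a value above 0, at the scaling used. Its probe (A_55_P2178084, NM_007872) stood at −1.42, −0.90 and −1.03 on water replicates 2, 3 and 4, and at −0.89, −0.89 and −0.68 with captopril. All captopril arrays lay above all water arrays, as in 10.0% of all genes tested, but the gap to water replicate 3 was less than 0.01 (−0.894 against −0.900). The means were −1.11 ± 0.27 (SD, n = 3) in water and −0.82 ± 0.12 (n = 3) with captopril. The log2 fold change was 0.29 (SE 0.23, 95% interval −0.26 to 0.84, limma adjusted p = 0.663), and −0.0089 when arrays were scaled by their median. Without water replicate 3 it was 0.40 (SE 0.18, 95% interval −0.020 to 0.82, adjusted p = 0.279), with the groups still apart, as in 27.2% of all genes in that direction, and without water replicate 2 it was 0.14 (SE 0.28, adjusted p = 0.852).

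Dnmt3b, the other de novo methyltransferase, had 3 probes with the same accession (NM_001003961), and these did not give the same picture. The brightest (A_55_P2130535) stood at 2.03, 2.98 and 2.09 on water replicates 2, 3 and 4, and at 1.96, 2.03 and 2.12 with captopril. Apart from water replicate 3, its 5 arrays lay between 1.96 and 2.12. Its log2 fold change was −0.33 (SE 0.30, 95% interval −1.05 to 0.39, limma adjusted p = 0.705), and −0.023 without that array (SE 0.14, 95% interval −0.36 to 0.31, adjusted p = 0.938). Leaving out water replicate 2 gave −0.50.

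On the other probes of Dnmt3b, water replicate 3 was the lowest array in place of the highest. Probe A_55_P1975903 stood at 1.84, 0.36 and 1.77 on water replicates 2, 3 and 4, and at 1.37, 1.03 and 0.94 with captopril. Probe A_55_P2008874 stood at 1.96, 0.80 and 1.78 in water and at 1.58, 1.56 and 1.66 with captopril. Over 6 arrays the log2 fold changes were −0.21 (SE 0.43) and 0.09 (SE 0.34), with adjusted p of 0.851 and 0.928 over all probes.

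With water replicate 3 left out, both of these probes of Dnmt3b had all captopril arrays below the 2 water arrays. Among all genes tested, each by its representing probe, 15.7% separated in this direction on the same arrays. The share over all probes was not computed. The log2 fold changes of both probes were then −0.69 (SE 0.18, 95% interval −1.13 to −0.26, limma adjusted p = 0.125) and −0.27 (SE 0.15, 95% interval −0.63 to 0.095, adjusted p = 0.362). Neither passed the threshold, which 91 of 32426 probes (0.281%) did in that fit and 0 (0.0%) with 6 arrays. On the log2 scale, the difference between A_55_P1975903 and the brightest probe was −0.19, −2.62 and −0.32 on water replicates 2, 3 and 4, and −0.59, −0.998 and −1.19 with captopril. This difference between probes did not separate the groups over 6 arrays (exact permutation test, two-sided p = 1), and without water replicate 3 it gave p = 0.2, where 0.1 is the smallest possible, although the groups did not overlap. For A_55_P2008874 the difference was −0.068, −2.19 and −0.32 on water replicates 2, 3 and 4, and −0.38, −0.46 and −0.47 with captopril (exact permutation p = 1, and p = 0.1 without water replicate 3). The position of each probe in the transcript was not used here.

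**Figure D2:**
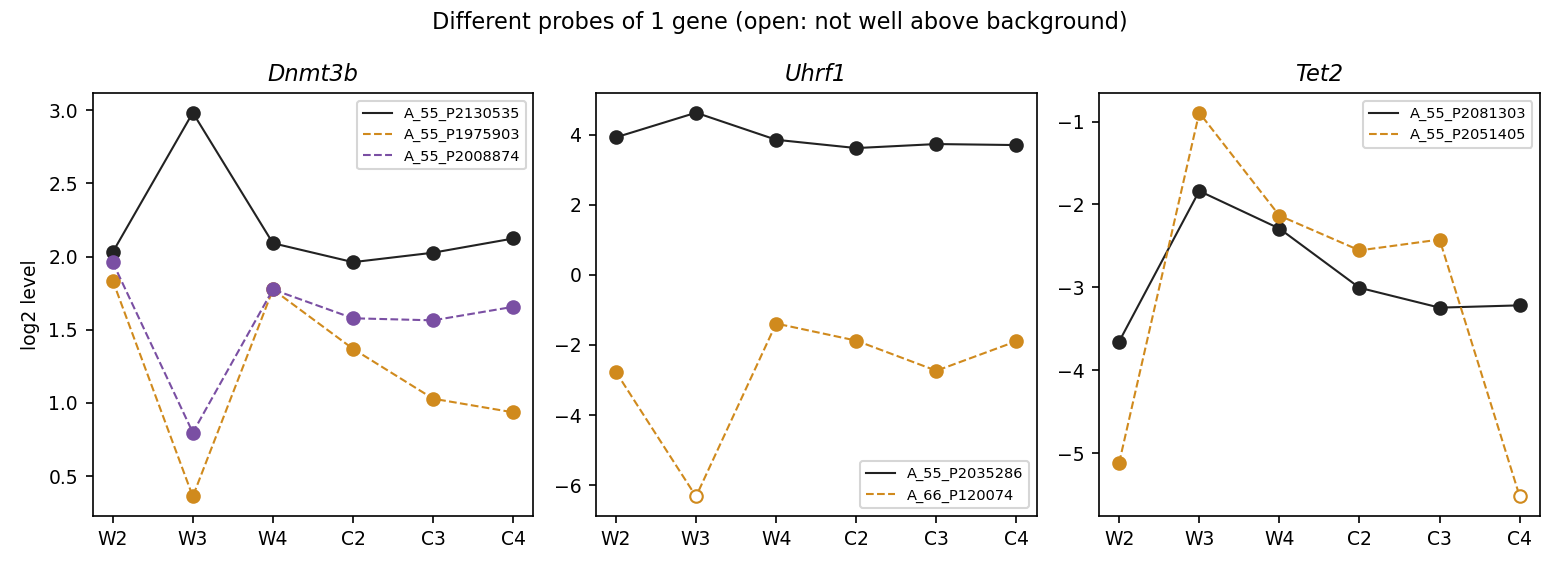
The log2 level of each probe of Dnmt3b, Uhrf1 and Tet2 is plotted on the 6 arrays (W water, C captopril, number the replicate), with the representing probe as a solid line and open points for spots not well above background. On water replicate 3 the solid line of Dnmt3b is at 2.98 while the dashed ones are at 0.36 and 0.80.

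Disagreement of this kind was common on water replicate 3. Among 4437 pairs of a gene's representing probe and another of its probes, the difference departed by over 1 log2 unit from its own median over the arrays in 49.0% of the pairs there. The share was 8.90% on captopril replicate 4 and 0.676% to 2.10% on the other 4 arrays. The median departure was 0.96 on water replicate 3, 0.26 on captopril replicate 4 and 0.12 to 0.16 elsewhere. For the other probes of Dnmt3b the departure on water replicate 3 was −1.83 and −1.76, and for that of Uhrf1 it was −4.91. The part of these departures in the group differences was not tested, beyond the values without the array.

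**Figure D3:**
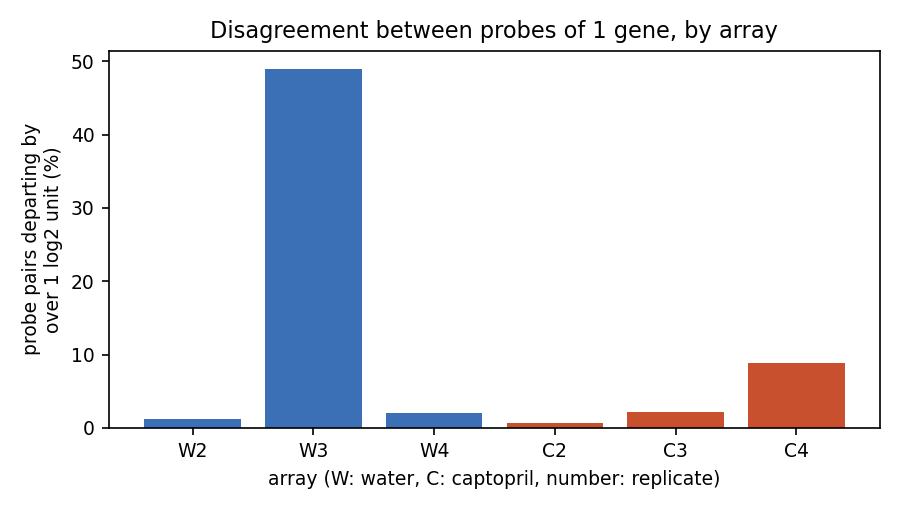
The bars give, for each array (W water, C captopril, number the replicate), the percentage of 4437 probe pairs of the same gene whose log2 difference departs by over 1 from its median over the 6 arrays. Water replicate 3 stands at 49.0%, and the next highest, captopril replicate 4, at 8.90%.

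Dnmt3l, the partner that stimulates the de novo enzymes and is known for its role in the male germ line before birth, was well above background on all 6 arrays. Its probe (A_51_P496720, NM_019448) stood at −0.78, −1.19 and −1.04 on water replicates 2, 3 and 4, and at −1.47, −1.55 and −0.99 with captopril. Captopril replicates 2 and 3 lay below all water arrays, while captopril replicate 4 lay among them, above water replicates 3 and 4. The means were −1.001 ± 0.21 (SD, n = 3) and −1.33 ± 0.30 (n = 3). The log2 fold change was −0.33 (SE 0.25, 95% interval −0.93 to 0.26, limma adjusted p = 0.652). It was −0.43 without water replicate 3 (SE 0.21, 95% interval −0.93 to 0.073, adjusted p = 0.317), −0.51 without captopril replicate 4 and −0.22 without water replicate 2.

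The promoter windows of Dnmt3b and Dnmt3l are printed to show how differently these partners hold the target of their own pathway. Again the window with the most CG sites of each gene is given, with CG in capitals.
Dnmt3b (GRCm38.p6 chr2:153649199-153649498, plus strand): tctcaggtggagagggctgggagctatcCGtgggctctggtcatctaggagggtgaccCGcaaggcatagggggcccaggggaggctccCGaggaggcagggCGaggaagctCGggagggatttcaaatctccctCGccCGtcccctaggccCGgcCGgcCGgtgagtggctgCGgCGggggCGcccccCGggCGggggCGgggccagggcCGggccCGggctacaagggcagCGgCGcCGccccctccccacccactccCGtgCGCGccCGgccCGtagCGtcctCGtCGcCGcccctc
Dnmt3l (GRCm38.p6 chr10:78042037-78042336, plus strand): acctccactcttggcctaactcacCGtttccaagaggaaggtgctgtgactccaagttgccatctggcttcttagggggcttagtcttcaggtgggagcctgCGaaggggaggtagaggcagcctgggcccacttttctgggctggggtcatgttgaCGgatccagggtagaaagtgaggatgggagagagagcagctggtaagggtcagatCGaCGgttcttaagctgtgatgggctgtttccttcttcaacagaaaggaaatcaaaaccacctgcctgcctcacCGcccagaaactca
The Dnmt3b window holds 30 CG sites, more than 88.3% of all windows. The Dnmt3l window holds 6, below the median of all windows, and its other windows hold 3 and 4. Neither gene's windows hold a match to the 4 E2F spellings. Of the other members, the windows hold up to 47 CG sites in Dnmt3a, 57 in Tet2, 22 in Tet3 and 17 in Tet1. The arrays measured RNA, so the methylation of these sites is not known from these data.

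The Tet genes, whose enzymes oxidise methylated cytosine, had dimmer probes. Tet2 was represented by A_55_P2081303 (NM_001040400), with a processed signal of 203 to 700. It stood at −3.65, −1.84 and −2.29 on water replicates 2, 3 and 4, and at −3.00, −3.24 and −3.22 with captopril. The water arrays held both the highest and the lowest level, so the captopril arrays lay inside their range. The means were −2.59 ± 0.95 (SD, n = 3) and −3.16 ± 0.13 (n = 3), a log2 fold change of −0.56 (SE 0.46, 95% interval −1.64 to 0.52, limma adjusted p = 0.668). Without water replicate 3 it was −0.18 (SE 0.37, 95% interval −1.06 to 0.69, adjusted p = 0.801). The value without water replicate 2 was −1.09 (SE 0.30, adjusted p = 0.456). Within slide row 2 it was −0.87 (SE 0.23, adjusted p = 0.275), with the lone water array assumed to vary like the captopril arrays.

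The other Tet2 probe (A_55_P2051405, same accession) varied over a wider range. It stood at −5.12, −0.89 and −2.13 on water replicates 2, 3 and 4, and at −2.55, −2.42 and −5.52 with captopril, where it was not well above background on replicate 4. The low arrays, water replicate 2 and captopril replicate 4, came from different groups. Its log2 fold change was −0.79 (SE 1.26, limma adjusted p = 0.805 over all probes), and 0.13 without water replicate 3 (SE 1.14, adjusted p = 0.958). With an SE of this size the probe gives no direction for Tet2.

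Tet3 was measured by 1 of its 3 probes (all NM_183138). Probe A_52_P491273 stood at −2.48, −1.98 and −2.48 on water replicates 2, 3 and 4, and at −2.94, −2.51 and −2.12 with captopril. The groups overlapped, and the highest captopril array was again replicate 4. The means were −2.32 ± 0.29 (SD, n = 3) and −2.52 ± 0.41 (n = 3), a log2 fold change of −0.21 (SE 0.29, 95% interval −0.89 to 0.48, limma adjusted p = 0.815). It was −0.040 without water replicate 3 (SE 0.24, 95% interval −0.62 to 0.53, adjusted p = 0.937), 0.00094 without captopril replicate 2 and −0.41 without captopril replicate 4. Probes A_51_P199339 and A_55_P2175260 were not well above background on any array, and were left out of the test.

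**Figure D4:**
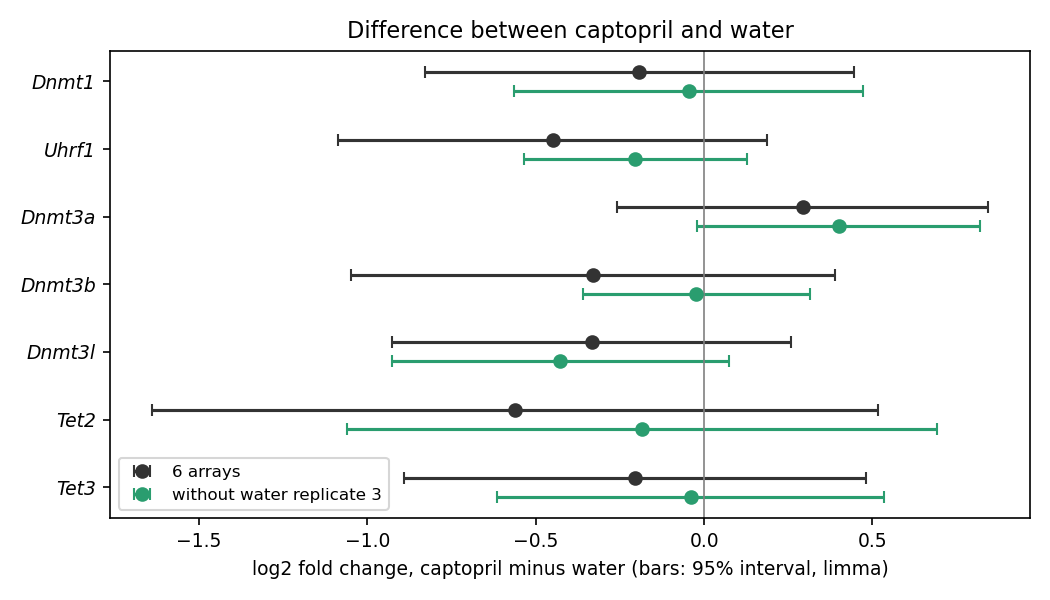
Points are the log2 fold changes (captopril minus water) of the 7 genes from limma with 6 arrays (black) and without water replicate 3 (green), and bars are 95% intervals. Every interval includes 0, and that of Dnmt3a without water replicate 3 runs from −0.020 to 0.82.

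The order of the arrays differed between the genes. Water replicate 3 was the highest array for Dnmt1, Uhrf1, Dnmt3b, Tet2 and Tet3. Captopril replicate 4 came next for Dnmt1, Dnmt3b and Tet3, and was the highest for Dnmt3a, while water replicate 2 was the highest for Dnmt3l. Set against the median of each gene on all 6 arrays, the median of the 7 members was −0.0026, 0.50 and 0.03 on water replicates 2, 3 and 4. It was −0.18, −0.06 and 0.12 on captopril replicates 2, 3 and 4. Over all genes tested the same measure was 0.36 on water replicate 3 and 0.09 on captopril replicate 4. Both arrays had a lower 75th percentile signal, 1875 and 1885, than the other 4, at 2780 to 3424.

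The genes whose levels most resembled each member were found among 13382 other genes well above background on all 6 arrays, by Pearson's r over the 6 arrays. They were Ap1g1 for Dnmt1 (r = 0.995), Crnkl1 for Uhrf1 (0.999), Cd244a for Dnmt3a (0.970) and Mrs2 for Dnmt3b (0.999). For Dnmt3l, Tet2 and Tet3 they were Pxmp2 (0.989), Hsf2 (0.991) and Ctla2a (0.996). These are the highest of many correlations over 6 points that share arrays and scaling. For Dnmt3b 1195 genes exceeded 0.95 and for Uhrf1 870, while for Dnmt3a and for Dnmt3l 7 each did. On water replicate 3 Crnkl1 stood at −1.66, against −2.98 to −2.58 on the other arrays, and Mrs2 at 2.15, against 1.07 to 1.23.

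Genes around the enzymes were taken from 6 lists, and none of their 96 tested members passed the test in either direction, with 6 arrays or without water replicate 3. Members of the list called methyl-CpG readers were not checked for binding of methylated CG. This list had a median log2 fold change of −0.10, with 6 of 8 tested genes below 0. Without water replicate 3 the median was −0.039, with 4 of its 8 genes below 0. The smallest p values among them were those of Mbd4, a glycosylase that reads methylated CG (−0.21, SE 0.29), of Mbd3 (−0.13, SE 0.22) and of Mbd2 (0.16, SE 0.28). They were −0.33, −0.098 and 0.36 without water replicate 3, and each turned sign under at least 1 alternative. Partners and recruiters of the enzymes had a median of −0.31, with 14 of 19 below 0, and of −0.11 with 12 of 19. The smallest p values there were those of the heterochromatin protein gene Cbx5 (−1.21, SE 0.30, limma adjusted p = 0.481), the chromatin remodeller gene Hells (−0.71, SE 0.30) and the deacetylase gene Hdac1 (−0.93, SE 0.40). When water replicate 3 was left out Cbx5 stood at −1.02 (SE 0.23, adjusted p = 0.094), Hells at −0.61 and Hdac1 at −0.65. Without captopril replicate 4 Hells stood at −0.44 and Hdac1 at −0.55.

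The list of base excision and demethylation genes also held Idh1, Idh2 and Idh3a, isocitrate dehydrogenase genes linked to the co-substrate of the Tet enzymes. It had a median of 0.16, with 5 of 17 tested genes below 0, and of 0.23 with 7 of 17 without water replicate 3. Tdg, the glycosylase that removes oxidised methylcytosine, had the smallest p of the list and stood at −1.08 (SE 0.39, limma adjusted p = 0.591), and at −0.69 without water replicate 3 (SE 0.24, adjusted p = 0.191). Parp1 and Neil1 followed at 0.96 (SE 0.55) and 1.14 (SE 0.72), at 0.30 and 0.23 without that array, and Parp1 at 0.0077 within slide row 2. On water replicate 3 the level of Neil1 was −3.22, against −0.75 to 0.03 on all other arrays.

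Genes that supply the methyl donor S-adenosylmethionine had a median of −0.29, with 12 of 17 tested genes below 0, and of −0.090 with 10 of 17 without water replicate 3. The folate enzyme genes Mthfd1 and Mthfd1l stood at −0.71 (SE 0.31) and −0.51 (SE 0.25), and Mat2a, which makes the donor, at −1.15 (SE 0.54). Without water replicate 3 they stood at −0.75, −0.51 and −0.80. Mat2a stood at −0.58 without captopril replicate 3 and at 0.38 as the mean of its probes, and Mthfd1 at −0.42 without captopril replicate 4. As the mean of its probes Mthfd1l stood at −1.09 (SE 0.37). Germline genes with methylation-sensitive promoters had a median of −0.18, with 11 of 14 below 0, and of −0.043 with 7 of 14. Of these Ddx4, Tdrd1 and Sycp3 had the smallest p, at −0.71 (SE 0.40), −0.32 (SE 0.20) and −0.48 (SE 0.32). They stood at −0.25, −0.35 and −0.31 without water replicate 3, and Sycp3 at −0.24 without captopril replicate 4.

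S-phase genes had the lowest median of the 6 lists, and the values of Uhrf1 and Dnmt1 are given with theirs here. The median was −0.41 over 6 arrays, with 20 of 23 tested genes below 0, and −0.22 without water replicate 3, with 22 of 23 below 0. In the same fits Uhrf1 stood at −0.45 and −0.20, and Dnmt1 at −0.19 and −0.045, above the list's median in both. In 8 of the 23 S-phase genes all captopril arrays lay below all water arrays, against 11.4% of all genes, and without water replicate 3 in 12 of 23, against 15.7%. Rrm2 and Rrm1, subunits of ribonucleotide reductase, stood at −0.86 (SE 0.23, limma adjusted p = 0.520) and −0.71 (SE 0.33), and Gins1, a replication helicase subunit gene, at −0.70 (SE 0.26). Leaving out water replicate 3 gave −0.69 (SE 0.14, adjusted p = 0.079), −0.36 and −0.48. Relative to each gene's median, the list stood at 0.07, 0.73 and 0.06 on water replicates 2, 3 and 4, and at −0.22, −0.16 and 0.01 on captopril replicates 2, 3 and 4. The feeder fibroblast markers had a median log2 fold change of −0.49 over 6 arrays, with 14 of 15 genes below 0. Without water replicate 3 it was −0.15, with 9 of 15 below 0. All captopril arrays lay below all water arrays in 6 of these 15 markers, with 6 arrays and also without water replicate 3. They lay above them in 0 and 2 of 15. The germ cell markers had medians of −0.12 (9 of 15 below 0) and −0.073 (8 of 15). Among them 3 of 15 separated downward in both fits, and 1 and 4 of 15 upward. Relative levels of the fibroblast list were 0.036, 0.87 and −0.0029 in water and −0.20, −0.19 and 0.015 with captopril. The part of the cell makeup or of the share of cells in S phase in the levels of Uhrf1 and Dnmt1 was not tested.

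**Figure D5:**
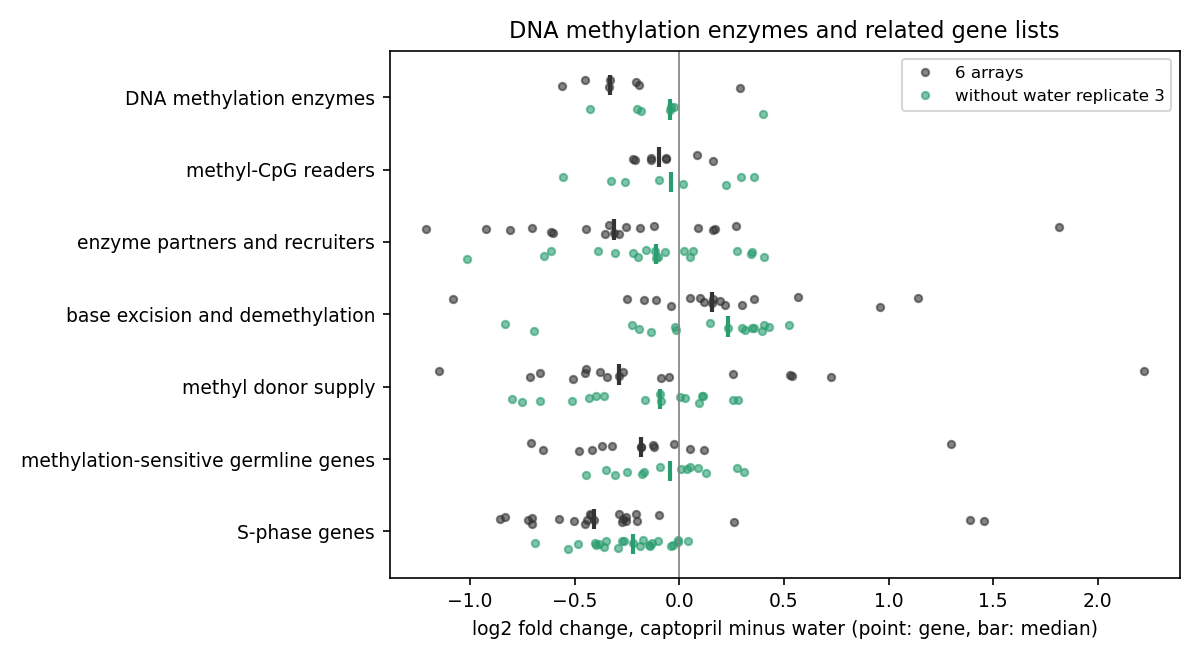
Each point is the log2 fold change (captopril minus water) of a gene, by list, with 6 arrays (black) and without water replicate 3 (green), and vertical bars are medians. The enzymes' median moves from −0.33 to −0.045 when that array is left out, and that of the S-phase genes from −0.41 to −0.22.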

How the data were processed

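Intensity values of single-colour Agilent arrays, 3 captopril and 3 water, are the scanner output the authors deposited. Per the file headers the Agilent Feature Extraction software was 11.5.1.1, and 10.7 per the submitters' processing notes. All arrays lie on 1 slide and in 1 scan, with water replicates 2 and 3 in slide row 1. The sources used here do not state how the authors' deposited table of log2 values was made. These values correlated at r = 1.00 with log2 of the processed signal and had a 75th percentile within 0.01 of 0. On each array 99.7% to 99.8% of them lay within 0.01 of a constant distance from that log2 signal. The table served as an alternative, but it nearly repeats the signal and scaling of the main fit, so similar results were set in advance.

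Here the 75th percentile of each array was subtracted from log2 of the processed signal, without control and outlier spots. Spots of a probe were averaged. Probes were named through RefSeq accessions (table of assembly GRCm38.p6), which gave 26756 of 55681 probes a symbol. A gene was represented by the brightest of its probes that passed a filter, well above background on 3 or more arrays,, and 14873 genes were tested. All member probes were also fitted among the 32426 probes passing that filter. The comparison used limma 3.58.1 (R 4.3.3; lmFit, eBayes), two-sided, with Benjamini-Hochberg adjustment over all genes or probes and a threshold of 0.05. The code was tested on simulated data. Other steps used Python 3.11.15, pandas 2.3.3 and matplotlib 3.10.9. The number of arrays limits the precision, and p-values measure the spread between these arrays only.

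The members and lists were chosen with earlier results of these data known. The genes named are the 8 members, the 3 smallest p per related list, and the gene most like each member. Alternatives were normexp background correction (offset 50, on median signals), quantile and median scaling, other filters, averaging all probes of a gene, robust eBayes with a variance trend, the authors' table, a block for replicate number or slide row, row 2 of the slide by itself, a threshold of 0.1, and each array left out. The gene tests did not use probes without a matched symbol.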

Additional observations from a re-analysis of the deposited data

How the results depend on the processing

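At an adjusted p of 0.05, no alternative run called any of the 7 enzyme genes or any tested gene of the 6 related lists. Over the whole array 91 genes were called without water replicate 3 (0 to 91 over the arrays left out in turn) and 39 without it under median scaling, and limma called 0 under the other alternatives, where 343 to 2979 genes had an unadjusted p under 0.05. The members' median log2 fold change of −0.33 was −0.63 with median scaling. It was −0.054 with the slide row as a block and in slide row 2 alone, which make the same contrast. Averaging all probes of a gene gave −0.19, with 5 genes below 0 and 2 above. Without water replicate 3 the median was −0.045, with or without the filter on dim probes. Without that array it was −0.13 with quantile normalization and −0.18 with median scaling. The median ranged from −0.41 to −0.045 over the arrays left out in turn. Deviations from the group means correlated at −0.015, 0.022 and −0.19 between same-numbered arrays. Water replicate 3 enters all water deviations through the group mean, so these values cannot settle whether replicate numbers pair the arrays. The replicate block gave a median of −0.33 and 0 calls.

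Some values changed sign, and the cause was not tested. With the slide row as a block or row 2 alone, Dnmt1 stood at 0.079 and Mbd3 at 0.053, and with the row as a block the other probe of Uhrf1 stood at −0.78 and A_55_P2008874 of Dnmt3b at −0.18. The mean of a gene's probes gave 0.44 for Uhrf1, 1.13 for Mbd3 and 0.38 for Mat2a. Median scaling gave −0.0089 for Dnmt3a, −0.14 for Mbd2 and −0.21 for A_55_P2008874. Leaving out each array in turn, values ran from −0.41 to 0.00094 for Tet3, −0.089 to 2.38 for the other probe of Uhrf1, −0.69 to 0.043 for A_55_P1975903 and −0.27 to 0.31 for A_55_P2008874 of Dnmt3b, −1.99 to 0.23 for the other probe of Tet2, −0.35 to 0.054 for Mbd4 and −0.0026 to 0.36 for Mbd2. The other probes of Uhrf1 and Tet2 were each not well above background on 1 array, which limits what they show.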
